A study of Mus musculus with 24 samples.

Results

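The SLAM family of receptors and the small SH2 adaptors that carry their signals were followed in natural killer (NK) cells taken from mouse melanoma tumours. The group was chosen by name and held 10 genes, all of which were found among the 53465 gene identifiers of the count table. It comprised 6 receptor genes (Slamf6, Slamf7, Cd244, Cd48, Cd84 and Ly9) and 4 adaptor genes (Sh2d1a, Sh2d1b1, Sh2d1b2 and Sh2d2a). B16F10 melanoma cells had been placed under the skin of the flank of wild-type female B6 mice, and NK cells were sorted from the tumours on day 14. Each library came from 100 cells. The 4 sorted populations, with 6 libraries each, were CD27+CD69+, CD27+CD69-, CD11b+CD69+ and CD11b+CD69- cells, and the labels name no treatment of the hosts. CD27 marks less mature NK cells, the integrin chain CD11b marks mature ones, and CD69 is an early activation marker that keeps lymphocytes from leaving tissue. No label tells if replicates came from different animals, so the p-values measure only the spread between these samples.

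SLAM receptors are immunoglobulin-like surface proteins of blood cells. Most bind the same receptor on a neighbouring cell, whereas 2B4, the product of Cd244, binds CD48. The tails of the listed receptors other than CD48 carry tyrosine motifs that dock SAP (Sh2d1a) or the EAT-2 proteins (Sh2d1b1 and Sh2d1b2). SAP brings in the kinase FYN, and the EAT-2 proteins couple to phospholipase C gamma. In NK cells these adaptors decide whether a SLAM receptor promotes or restrains killing. TSAd, the product of Sh2d2a, is a separate SH2 adaptor that binds the kinase LCK in T and NK cells.

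Total counts per library lay between 1213914 and 2671533, and 3 counts corresponded to 1.12 to 2.47 CPM, the count set against library size, a limit of counting error alone. Although melanoma is the labelled cell type, all 9 NK marker genes had counts in every population. Their summed level was 14094 to 17413 CPM in CD27+CD69+, 8692 to 15139.9 in CD27+CD69-, 22380.1 to 28844 in CD11b+CD69+ and 28259 to 33550.5 CPM in CD11b+CD69- libraries. Itgam and Cd27 differed in RNA as the sort labels say. Itgam, which encodes CD11b, averaged 12.2 ± 6.64 CPM in CD27+CD69- and 89.7 ± 27.6 CPM in CD11b+CD69- libraries (SD, n = 6 each), and Cd27 averaged 277 ± 58.4 and 87.9 ± 38.6 CPM in the same libraries. Cd69 averaged 1112 ± 59.4 CPM in CD11b+CD69+ and 607 ± 253 CPM in CD11b+CD69- libraries (log2 difference 0.87, adjusted p = 0.0135, and 0.60, adjusted p = 0.161, with the T cell list as a covariate). It averaged 1173 ± 129 CPM in CD27+CD69+ and 735 ± 188 CPM in CD27+CD69- libraries and did not pass there (0.67, adjusted p = 0.0907). Its transcript was thus present in libraries of cells sorted as negative for the protein, and which cells in them held it was not tested. The CD27+CD69- libraries stood apart. Fibroblast genes (8 genes) summed to 258 to 11001 CPM there, against 0 to 232 in CD27+CD69+, 0 in CD11b+CD69+ and 0 to 8.02 CPM in CD11b+CD69- libraries. Melanoma genes (6 genes) reached 5729 CPM in CD27+CD69- replicate 6 and at most 242 CPM in any other library.

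Most calls in the group came from comparing CD27+CD69- with CD11b+CD69- libraries. Slamf6 was higher in CD27+ cells, and Slamf7, Cd244, Cd48 and Sh2d2a were lower in CD27+ cells among CD69- libraries. Among CD69- libraries 5 of the 10 genes passed an adjusted p of 0.05 in edgeR's quasi-likelihood test, 1 higher and 4 lower, against 12.4% of all 10536 genes tested (7.46% higher and 4.92% lower). Among CD69+ libraries only Slamf6 passed, against 1.9% of all genes. The members' median log2 difference of CD27+ from CD11b+ was -0.43 in CD69- libraries, where that of all genes was 0.05, and -0.13 in CD69+ libraries, where that of all genes was 0.02. Levels of 4 members did not overlap between CD27+CD69- and CD11b+CD69- libraries, against 6.62% of all genes. Between CD27+CD69+ and CD11b+CD69+ libraries 1 member did not overlap, against 2.29% of all genes. In a list of 14 genes that leukocytes in general express, 8 (57.1%) and 2 (14.3%) did not overlap in these comparisons.

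CD69 separated few of the 10 genes. In CD27+ cells Slamf7 alone passed, higher in CD69+ libraries, against 1.85% of all genes (0.55% higher and 1.3% lower), and 2 members did not overlap, against 2.11% of all genes. In CD11b+ cells 0 of 10 passed in edgeR, against 2.74% of all genes. There, 5 members had an unadjusted p under 0.05, against 13.9% of all genes, and 6 had one in CD27+ cells, against 11% of all genes. In CD11b+ cells DESeq2 called 0 of the 10, against 4.58% of all genes, and limma-voom called 1 (Sh2d1b1), against 3.4% of all genes. In the same cells 1 member did not overlap, against 3.19% of all genes. The members' median log2 difference of CD69+ from CD69- was 0.41 in CD27+ cells, where that of all genes was -0.01, and -0.07 in CD11b+ cells, where that of all genes was 0. The 14 leukocyte genes moved in the same direction in CD27+ cells, with a median of 0.28 and 14 of 14 genes above 0. Their median in CD11b+ cells was -0.17. Tested against each other, the CD69 differences of CD27+ and CD11b+ cells were unequal for 1 member, Slamf7, against 0.579% of all genes. A test of any difference among the 4 populations was passed by 6 of the 10 genes (Slamf6, Slamf7, Cd244, Cd48, Sh2d1b1 and Sh2d2a), against 14.1% of all genes. These comparisons share libraries and are not independent of each other. All 10 genes passed the filter on low counts.

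**Figure D1:**
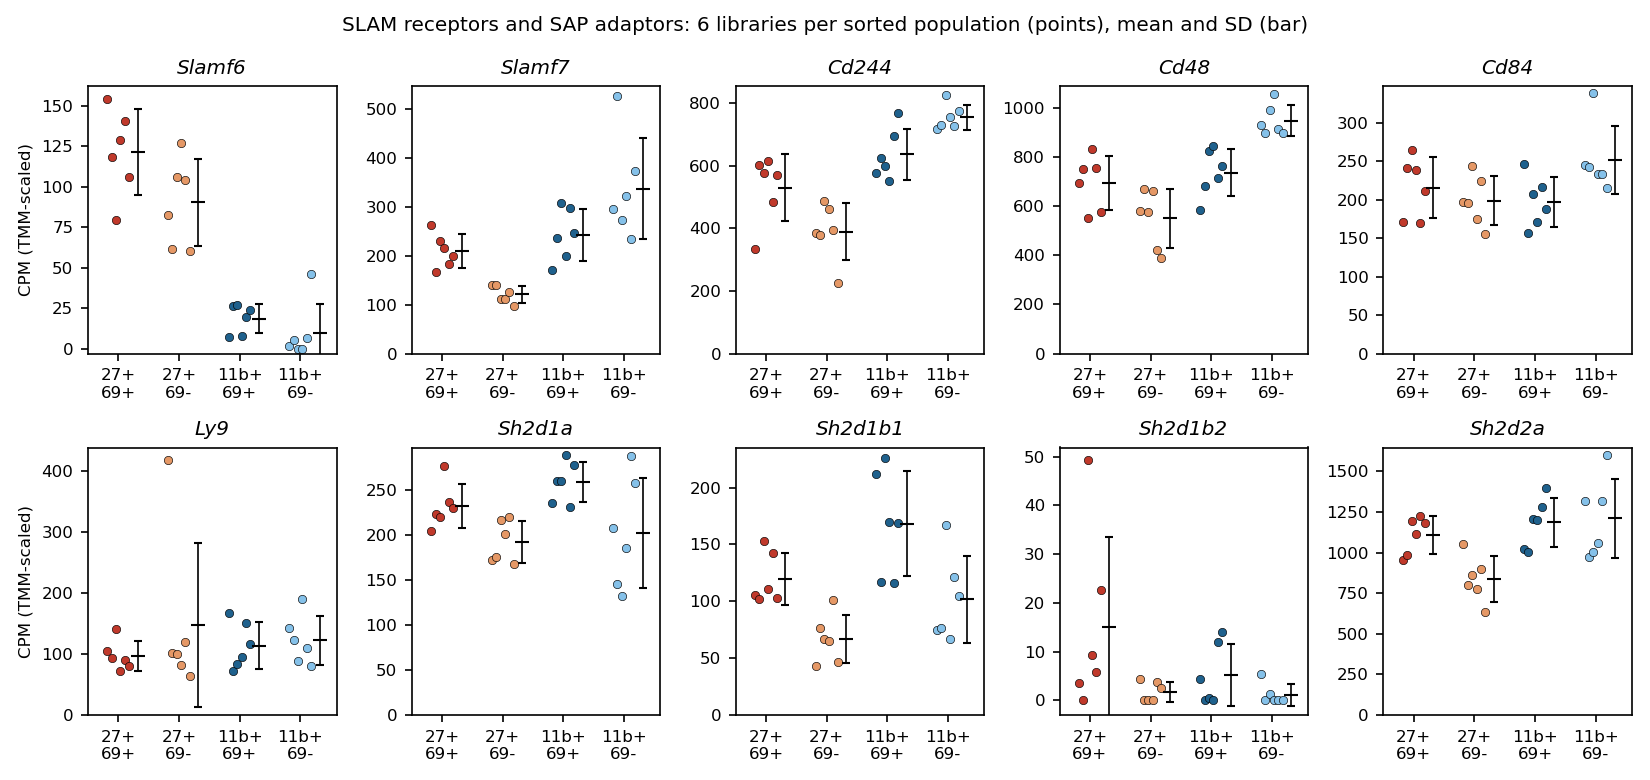
Levels of the 10 genes in TMM-scaled CPM (vertical axes) in the 4 sorted populations; each point is 1 library, and the bar gives the mean and SD of 6. Slamf6 is at 60.2 CPM or more in every CD27+ library and at 26.9 CPM or less in every CD11b+ library except CD11b+CD69- replicate 6 (45.9 CPM); Slamf7 is lowest in CD27+CD69- libraries.

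The scaling of the libraries changed some of these calls. In CD27+CD69- libraries the 14 pan-leukocyte genes, such as Ptprc and Coro1a, summed to 11030.3 to 19629 CPM. The sum was 24497 to 25908 CPM in CD11b+CD69- libraries, and 10 of the 14 passed as lower (median log2 difference -0.62). Their differences were uneven, from -1.61 to 0.06. Itgb2, 1 of the 14, averaged 632 ± 281 CPM in CD27+CD69- and 1930 ± 217 CPM in CD11b+CD69- libraries. In bulk samples fewer cells of a type and less RNA per cell cannot be told apart. When libraries were scaled on these 14 genes, a choice made after seeing the data, the median of all genes moved to 0.67 on the log2 scale in this comparison. With that scaling 3 members were higher in CD27+CD69- libraries (Slamf6, Ly9 and Sh2d1a) and 2 were lower (Slamf7 and Cd244), Cd48 no longer passed and Sh2d2a changed sign. Over all genes, 34.3% were then called higher and 1.16% lower. Slamf6, Slamf7 and Cd244 passed in the same direction under both scalings.

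**Figure D2:**
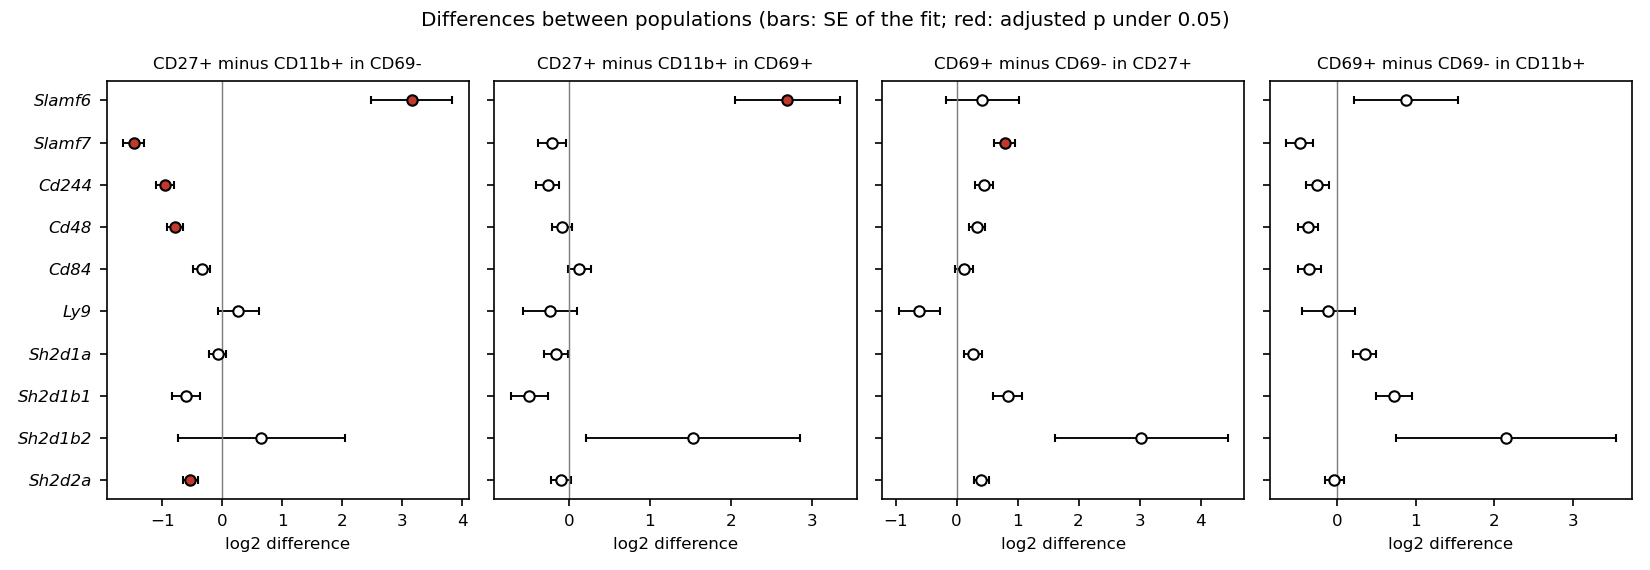
Log2 differences of the 10 genes in 4 comparisons (horizontal axes; points are estimates of the edgeR fit, bars their standard errors, red an adjusted p under 0.05). Slamf6 lies at 3.16 and 2.70 in the CD27+ minus CD11b+ panels, and Slamf7 at -1.48 among CD69- libraries; the Sh2d2a value there, -0.53, becomes 0.065 when libraries are scaled on pan-leukocyte genes.

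The 6 receptor genes lie on chromosome 1 within 394 kb (chr1:171559193-171953170, GRCm38), and all 6 had counts in each population. Levels of different genes were compared per kb of annotated exon, and the order depends on these lengths. All annotated exons were counted (1189 bases for Cd48, 5939 for Sh2d2a and 10832 for Slamf6). In CPM, Sh2d2a was above Cd48 in CD27+CD69+ (1108 against 694) and CD27+CD69- libraries (837 against 550). The same held in CD11b+CD69+ (1185 against 736) and CD11b+CD69- libraries (1211 against 949). Per kb, Cd48 was the highest of the group in each population, with 584 ± 92.0, 463 ± 99.6, 619 ± 80.8 and 799 ± 53.3 CPM per kb in CD27+CD69+, CD27+CD69-, CD11b+CD69+ and CD11b+CD69- libraries (SD, n = 6 each). Sh2d2a came next, between 141 and 204 CPM per kb, and Cd244 followed, between 79.8 and 155 CPM per kb. Below these, Slamf7, Sh2d1b1, Sh2d1a, Cd84 and Ly9 lay between 26.2 and 73.5 CPM per kb, and neighbours in that order differed by less than the larger of their SDs, except Sh2d1a over Cd84 in CD27+CD69+, Cd84 over Slamf7 in CD27+CD69-, Sh2d1a over Ly9 in CD11b+CD69+ and Slamf7 over Cd84 in CD11b+CD69- libraries. Slamf6 and Sh2d1b2 were the lowest per kb in every population. In CPM, Slamf6 was above Sh2d1b1 in CD27+CD69+ (121.3 against 119.6) and CD27+CD69- libraries (90.4 against 66.7), but not in the CD11b+ populations. Cd48 made up 71.5 ± 4.48%, 70.8 ± 5.19%, 71.0 ± 3.84% and 72.2 ± 1.84% of the summed receptor level per kb in the same order, so its share varied by less than its SD. Slamf6 made up 1.38 ± 0.276% and 1.30 ± 0.372% in the CD27+ populations, against 0.196 ± 0.0947% and 0.0868 ± 0.156% in the CD11b+ populations with the same CD69 state.

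**Figure D3:**
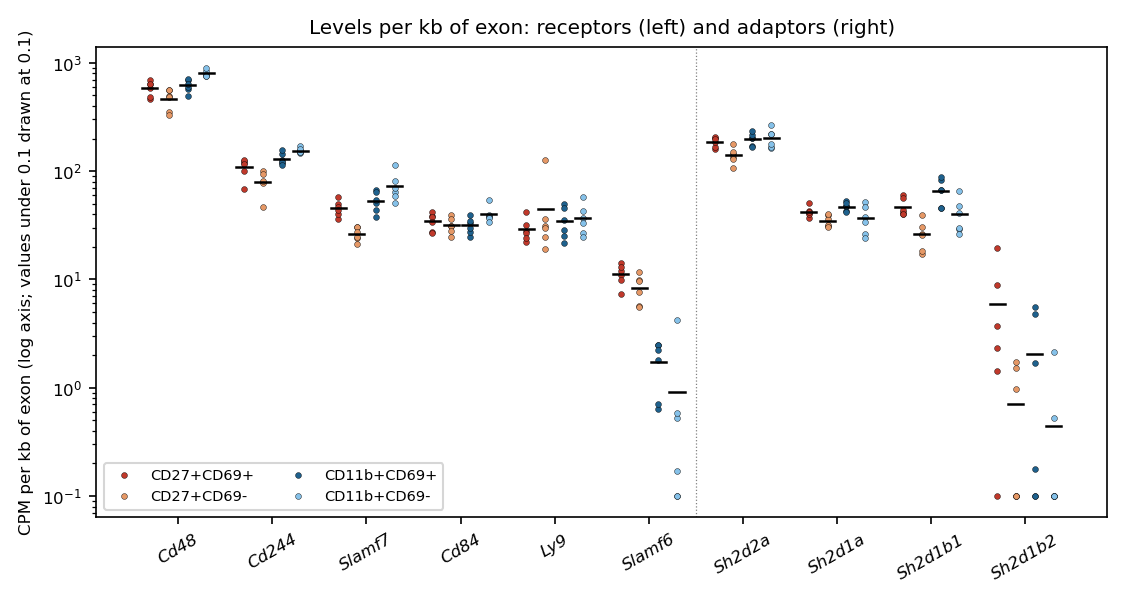
Level per kb of exon of each gene (vertical log axis, CPM per kb; values under 0.1 drawn at 0.1); points are libraries, coloured by population, and the line is the mean of 6. Cd48 is highest in each population (463 to 799 on average), and Slamf6 and Sh2d1b2 are lowest.

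Slamf6 (ENSMUSG00000015314, chr1:171917515-171953170, plus strand) encodes Ly108, a receptor that binds itself. It had 79.2, 124 and 154 CPM in CD27+CD69+ libraries (lowest, median and highest of 6) and 6.94, 21.8 and 26.9 CPM in CD11b+CD69+ libraries. The groups did not overlap. The log2 difference was 2.70 (SE 0.65, adjusted p = 0.0235), with 6 of 6 CD27+CD69+ libraries above the CD11b+CD69+ median. Slamf6 had 60.2, 93.6 and 127 CPM in CD27+CD69- libraries and 0, 3.74 and 45.9 CPM in CD11b+CD69- libraries. Every CD27+CD69- library was above every CD11b+CD69- library, and the log2 difference was 3.16 (SE 0.68, adjusted p = 0.00194). The 45.9 CPM belonged to CD11b+CD69- replicate 6, which held 112 of the 141 Slamf6 counts of that population. Without it the log2 difference was 5.05 (adjusted p = 9.88e-07). Without it, too, Slamf6 passed as higher in CD11b+CD69+ than in CD11b+CD69- libraries (2.77, adjusted p = 0.00478), where all 12 libraries gave 0.88 (SE 0.66, adjusted p = 0.635). The call among CD69+ libraries was lost without CD27+CD69+ replicate 1, 4 or 5 or CD11b+CD69+ replicate 1, 2, 4, 5 or 6 (2.53 to 2.83, adjusted p = 0.0513 to 0.0747).

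T cell genes moved with Slamf6, which T cells also express. The 11 genes of the T cell list summed to 2405, 3301 and 3859 CPM in CD27+CD69+ libraries and 1366, 1427 and 1768 CPM in CD11b+CD69+ libraries (lowest, median and highest). They summed to 1257, 2543 and 2977 CPM in CD27+CD69- libraries and 928, 1112 and 1307 CPM in CD11b+CD69- libraries. The 1307 CPM was replicate 6. In CD11b+CD69- libraries the T cell receptor gene Trbc1 alone reached 955 CPM. Cd3e and Cd3g each had counts in only 1 library of that population, at 0.492 and 19.2 CPM. Of the defining genes, Cd3e averaged 139 ± 45.0 CPM in CD27+CD69+, 85.8 ± 42.2 in CD27+CD69-, 1.45 ± 2.26 in CD11b+CD69+ and 0.0820 ± 0.201 CPM in CD11b+CD69- libraries (SD, n = 6 each). Cd8a averaged 13.5 ± 9.14 CPM in CD27+CD69+ (counts in 6 of 6 libraries), 10.1 ± 9.74 in CD27+CD69- (4 of 6), 0 in CD11b+CD69+ and 0.328 ± 0.803 CPM in CD11b+CD69- libraries (1 of 6). Cd4 was at 0 counts in CD27+CD69+ and CD11b+CD69- libraries and had counts in 1 library of each of the other populations. Trbc1, a T cell receptor chain, was high throughout, at 1065 ± 57.4, 888 ± 139, 1012 ± 94.7 and 807 ± 88.6 CPM in CD27+CD69+, CD27+CD69-, CD11b+CD69+ and CD11b+CD69- libraries. With the T cell list as a covariate, Slamf6 passed neither among CD69- libraries (log2 difference 1.85, adjusted p = 0.236) nor among CD69+ libraries (1.06, adjusted p = 0.827). Itgam and Cd27, which follow the sort itself, also lost their calls in both comparisons with that covariate. The list differed between the populations compared, so the fit cannot tell T cells from the sort. The part of T cells in the Slamf6 difference was not tested.

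Slamf7 (ENSMUSG00000038179, chr1:171632403-171653035, minus strand) encodes CRACC, a self-binding receptor that activates NK cells through EAT-2. It had 96.5, 119 and 139.7 CPM in CD27+CD69- libraries and 235, 307 and 525 CPM in CD11b+CD69- libraries. The groups did not overlap, and the log2 difference was -1.48 (SE 0.17, adjusted p = 8.95e-07). Slamf7 had 167, 207 and 262 CPM in CD27+CD69+ libraries and 171, 241 and 306 CPM in CD11b+CD69+ libraries. These groups overlapped, and the log2 difference was -0.21 (SE 0.17, adjusted p = 0.759). Within CD27+ cells, every CD69+ library was above every CD69- library, with a log2 difference of 0.79 (SE 0.17, adjusted p = 0.0110). Within CD11b+ cells it was -0.47 (SE 0.17, adjusted p = 0.151), and 6 of 6 CD69+ libraries were below the CD69- median. The CD69 difference in CD27+ cells minus that in CD11b+ cells was 1.27 (SE 0.24, adjusted p = 0.0118). That call was lost with libraries scaled on pan-leukocyte genes (0.81, adjusted p = 0.0691), with the fibroblast and melanoma lists as covariates (1.03, adjusted p = 0.981) and with CD27+CD69- replicate 5 as the only library of its population (1.20, adjusted p = 0.422). The CD69 call within CD27+ cells was lost with libraries scaled on pan-leukocyte genes (0.50, adjusted p = 0.106) and with the macrophage list (0.74, adjusted p = 0.0620), the T cell list (0.59, adjusted p = 0.309) or the fibroblast and melanoma lists (0.59, adjusted p = 1) as covariates. It was also lost with that single CD27+CD69- library (0.73, adjusted p = 0.838). An exon segment of Slamf7 (9.24% of its exon bases) overlaps Gm37787 on the opposite strand, which had 34 counts in all, against 11873 for Slamf7. How reads on these shared bases were counted is not given.

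The windows at the RefSeq start of these receptors are shown because Slamf6 and Slamf7 lie in 1 cluster and had opposite differences. Of the 10 genes, 7 had a promoter window of 300 bases in the RefSeq table (GRCm38.p6, 250 bases before the start and 50 after). In these, 4 short motifs were searched on both strands: the T-box core TCACAC, the RUNX core TGTGGT, the ETS core GGAAGT and the TCF core CAAAGG. The Slamf6 window (chr1:171917212-171917511, plus strand) held none of the 4, and the Slamf7 window (chr1:171648950-171649249, minus strand) held 1 T-box core, in capitals on its reverse strand.
Slamf6: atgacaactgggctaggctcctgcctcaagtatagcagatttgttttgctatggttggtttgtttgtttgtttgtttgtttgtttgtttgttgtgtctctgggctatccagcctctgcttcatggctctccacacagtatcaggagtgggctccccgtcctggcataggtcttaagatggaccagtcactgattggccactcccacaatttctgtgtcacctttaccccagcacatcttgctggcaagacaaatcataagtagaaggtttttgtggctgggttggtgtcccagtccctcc
Slamf7: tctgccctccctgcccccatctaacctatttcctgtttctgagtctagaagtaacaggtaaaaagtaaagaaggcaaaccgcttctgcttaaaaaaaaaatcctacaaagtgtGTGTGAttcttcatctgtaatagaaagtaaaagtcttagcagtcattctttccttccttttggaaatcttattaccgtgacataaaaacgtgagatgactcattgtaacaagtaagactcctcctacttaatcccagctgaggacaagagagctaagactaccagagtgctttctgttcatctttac
The T-box core was in 4 of the 7 windows (Slamf7, Cd48, Sh2d1b1 and Sh2d1b2), against 14.5% of the 32851 windows of the table. The RUNX core was in 4 (Cd48, Cd84, Sh2d1b1 and Sh2d1b2), against 16.8% of the table, and the ETS core in 3 (Cd48, Sh2d1b1 and Sh2d1b2), against 23.8% of the table. The TCF core was in 0, against 20.3% of the table. The Sh2d1b1 and Sh2d1b2 windows are near copies (93.3% identical over 238 aligned bases), so their matches are not separate counts. In the Cd48 window the T-box and RUNX letters overlap. A match is a description of the letters and does not show binding.

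Cd244 (ENSMUSG00000004709, chr1:171559193-171609746, plus strand) and Cd48 (ENSMUSG00000015355, chr1:171682009-171705258, plus strand) encode a receptor and its ligand. Cd244 had 226, 390.5 and 486 CPM in CD27+CD69- libraries and 718, 744 and 826 CPM in CD11b+CD69- libraries. The groups did not overlap, and the log2 difference was -0.96 (SE 0.15, adjusted p = 4.14e-05). Cd48 had 391, 579 and 669 CPM in CD27+CD69- libraries and 897, 924 and 1057 CPM in CD11b+CD69- libraries, again without overlap, and the log2 difference was -0.79 (SE 0.13, adjusted p = 8.49e-05). Both genes varied little among CD11b+CD69- libraries, with coefficients of variation of 5.35% for Cd244 and 6.68% for Cd48, against 23.4% and 21.5% among CD27+CD69- libraries. Scaled on pan-leukocyte genes, the Cd244 difference was -0.38 (adjusted p = 0.0209) and the Cd48 difference -0.20 (adjusted p = 0.149).

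Among CD69+ libraries these genes did not separate the populations. Cd244 had 333, 573.5 and 616 CPM in CD27+CD69+ libraries and 552, 611 and 770.5 CPM in CD11b+CD69+ libraries (log2 difference -0.26, SE 0.14, adjusted p = 0.538). Cd48 had 553, 724 and 834 CPM in CD27+CD69+ libraries and 587, 739 and 845 CPM in CD11b+CD69+ libraries (-0.08, SE 0.13, adjusted p = 0.909). The Cd48 levels of CD11b+CD69+ libraries were all below those of CD11b+CD69- libraries, with a log2 difference of -0.37 (SE 0.13, adjusted p = 0.132). It passed when only these 2 populations were fitted (-0.37, adjusted p = 0.0236). Within CD27+ cells, the CD69+ minus CD69- difference was 0.45 for Cd244 (SE 0.15, adjusted p = 0.131) and 0.33 for Cd48 (SE 0.13, adjusted p = 0.232). Without CD27+CD69+ replicate 1, which had the lowest Cd244 level of its population, the Cd244 difference passed (0.55, adjusted p = 0.0220). The difference between the CD69 differences was 0.69 for Cd244 (SE 0.20, adjusted p = 0.137) and 0.70 for Cd48 (SE 0.18, adjusted p = 0.0717). The Cd48 value passed in DESeq2 (0.67, adjusted p = 0.0165) and limma-voom (0.72, adjusted p = 0.0405), and without CD27+CD69- replicate 2 or CD27+CD69+ replicate 3 or 6 (0.75 to 0.77, adjusted p = 0.0398 to 0.0454), and the Cd244 value passed without CD27+CD69+ replicate 1 (0.80, adjusted p = 0.0472).

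Cd84 (ENSMUSG00000038147, chr1:171839697-171890718, plus strand) and Ly9 (ENSMUSG00000004707, chr1:171588624-171607410, minus strand) encode further self-binding receptors, and neither passed in any comparison. Cd84 had 169, 225 and 265 CPM in CD27+CD69+, 156, 196 and 244 in CD27+CD69-, 156, 198 and 246 in CD11b+CD69+ and 215, 239 and 339 CPM in CD11b+CD69- libraries. All populations overlapped, and the test of any difference gave an adjusted p of 0.261. Ly9 lies within the span of Cd244 on the other strand, with no shared exon bases. It had 72.7, 91.4 and 140.15 CPM in CD27+CD69+, 63.5, 101 and 418 in CD27+CD69-, 72.0, 105 and 166 in CD11b+CD69+ and 80.8, 116 and 189.8 CPM in CD11b+CD69- libraries. The populations overlapped throughout, and the 418 CPM was CD27+CD69- replicate 1 alone, with 847 counts. With that library the log2 difference of CD27+CD69- from CD11b+CD69- was 0.27 (SE 0.34, adjusted p = 0.707), and without it -0.39 (SE 0.24, adjusted p = 0.345). Scaled on pan-leukocyte genes and with all libraries, it was 0.82 (adjusted p = 0.0497), where the median of all genes was 0.67. That scaling was not fitted without CD27+CD69- replicate 1. The difference of CD27+CD69+ from CD27+CD69- was -0.61 (SE 0.34, adjusted p = 0.565), and 0.05 (adjusted p = 0.987) without the same library.

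Among the adaptors, Sh2d1a (ENSMUSG00000005696, chrX:42502453-42529330, plus strand) encodes SAP. It had 205, 227 and 277 CPM in CD27+CD69+, 167, 188 and 220.4 in CD27+CD69-, 231, 259.8 and 289.6 in CD11b+CD69+ and 132, 197 and 288 CPM in CD11b+CD69- libraries. It did not pass in any comparison, nor in the test of any difference (adjusted p = 0.142). Every CD69+ library was above the CD69- median, in CD27+ cells (log2 difference 0.27, SE 0.15, adjusted p = 0.560) and in CD11b+ cells (0.35, SE 0.15, adjusted p = 0.250). The difference of CD27+CD69- from CD11b+CD69- was -0.08 (SE 0.15, adjusted p = 0.833), and 0.53 (adjusted p = 0.0143) with libraries scaled on pan-leukocyte genes. Of its exon bases, 26.6% overlap Tenm1 on the opposite strand, which had 0 counts in the 24 libraries. How reads on shared bases were counted is not given, so this does not show that Sh2d1a lost no reads there.

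Sh2d1b1 (ENSMUSG00000102418, chr1:170277320-170286769, plus strand) encodes EAT-2, and Sh2d1b2 (ENSMUSG00000073494, chr1:170232749-170253608, plus strand) is its neighbouring copy. Their transcripts are 91.1% identical over 2428 aligned bases, and 334 of the 2493 windows of 50 bases in Sh2d1b2 (13.4%) occur unchanged in Sh2d1b1, so reads there cannot be assigned to 1 copy. Their promoter windows (chr1:170277068-170277367 and chr1:170232621-170232920, plus strand) are shown because the copies differ in level while these windows are 93.3% identical over 238 aligned bases. Capitals mark the letters that differ in the aligned stretch, 16 mismatches and 5 gap bases.
Sh2d1b1: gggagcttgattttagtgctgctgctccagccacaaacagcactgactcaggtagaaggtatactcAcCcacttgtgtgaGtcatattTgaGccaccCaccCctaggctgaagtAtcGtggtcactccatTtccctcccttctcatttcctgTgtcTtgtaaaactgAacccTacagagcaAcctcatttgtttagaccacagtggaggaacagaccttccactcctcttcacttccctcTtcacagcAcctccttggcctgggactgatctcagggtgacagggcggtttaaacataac
Sh2d1b2: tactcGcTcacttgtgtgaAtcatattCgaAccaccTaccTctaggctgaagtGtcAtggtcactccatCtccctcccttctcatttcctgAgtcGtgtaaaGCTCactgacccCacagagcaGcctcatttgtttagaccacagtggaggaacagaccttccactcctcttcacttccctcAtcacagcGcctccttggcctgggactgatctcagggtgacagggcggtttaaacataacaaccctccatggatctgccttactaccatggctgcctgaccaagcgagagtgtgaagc
Sh2d1b1 had 5912 counts in all 24 libraries, and Sh2d1b2 had 293 counts in 14 of them.

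Sh2d1b1 had 102, 108 and 153 CPM in CD27+CD69+ libraries and 43.4, 66.0 and 101 CPM in CD27+CD69- libraries. The lowest CD69+ library was just above the highest CD69- library, and the log2 difference was 0.84 (SE 0.23, adjusted p = 0.0595). It passed in DESeq2 (0.81, adjusted p = 0.0415), and without CD27+CD69- replicate 5 (0.99, adjusted p = 0.0166) or CD27+CD69+ replicate 6 (0.87, adjusted p = 0.0436). Sh2d1b1 had 116, 169 and 226 CPM in CD11b+CD69+ libraries and 66.8, 90.6 and 167 CPM in CD11b+CD69- libraries. These groups overlapped, and the log2 difference was 0.72 (SE 0.23, adjusted p = 0.0922). It passed in limma-voom (0.77, adjusted p = 0.0405), and without CD11b+CD69- replicate 3 (0.92, adjusted p = 0.0254). The CD69 differences in CD27+ and CD11b+ cells were not shown to differ (0.11, SE 0.33, adjusted p = 0.988). Of CD27+ from CD11b+ libraries the difference was -0.60 (SE 0.23, adjusted p = 0.0960) among CD69- and -0.49 (SE 0.23, adjusted p = 0.401) among CD69+ libraries. The test of any difference among the 4 populations passed (adjusted p = 0.00124).

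Sh2d1b2 was near the floor. It had 183 counts in 5 of 6 CD27+CD69+ libraries, 21 counts in 3 of 6 CD27+CD69-, 74 counts in 4 of 6 CD11b+CD69+ and 15 counts in 2 of 6 CD11b+CD69- libraries. The highest library, CD27+CD69+ replicate 3, held 97 counts (49.3 CPM). No comparison passed (adjusted p between 0.419 and 0.980). Of the summed level per kb of the 3 SAP family adaptors, Sh2d1a made up 45.0 ± 6.56%, 57.1 ± 5.46%, 41.6 ± 6.60% and 48.3 ± 11.1% in CD27+CD69+, CD27+CD69-, CD11b+CD69+ and CD11b+CD69- libraries (SD, n = 6 each). Sh2d1b1 made up 49.4 ± 4.21%, 41.6 ± 6.04%, 56.5 ± 7.20% and 51.1 ± 11.3% in the same order. The shares of Sh2d1a and Sh2d1b1 differed by less than either SD in CD11b+CD69- libraries and by less than the larger SD in CD27+CD69+ libraries, while Sh2d1a was the larger in CD27+CD69- and Sh2d1b1 the larger in CD11b+CD69+ libraries.

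Sh2d2a (ENSMUSG00000028071, chr3:87846755-87855722, plus strand), which encodes TSAd, had 633, 829.9 and 1055 CPM in CD27+CD69- libraries and 973, 1188 and 1598 CPM in CD11b+CD69- libraries. The groups overlapped through CD27+CD69- replicate 1, and 6 of 6 CD27+CD69- libraries were below the CD11b+CD69- median. The log2 difference was -0.53 (SE 0.12, adjusted p = 0.00378), which became 0.065 (adjusted p = 0.711) with libraries scaled on pan-leukocyte genes. Sh2d2a had 953, 1146.5 and 1224 CPM in CD27+CD69+ libraries and 1003, 1203 and 1399 CPM in CD11b+CD69+ libraries, which overlapped (-0.10, SE 0.12, adjusted p = 0.879). The CD69+ minus CD69- value was 0.40 (SE 0.12, adjusted p = 0.0984) in CD27+ cells, where it passed without CD27+CD69- replicate 1 (0.48, adjusted p = 0.0335), and -0.03 (SE 0.12, adjusted p = 0.968) in CD11b+ cells.

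**Figure D4:**
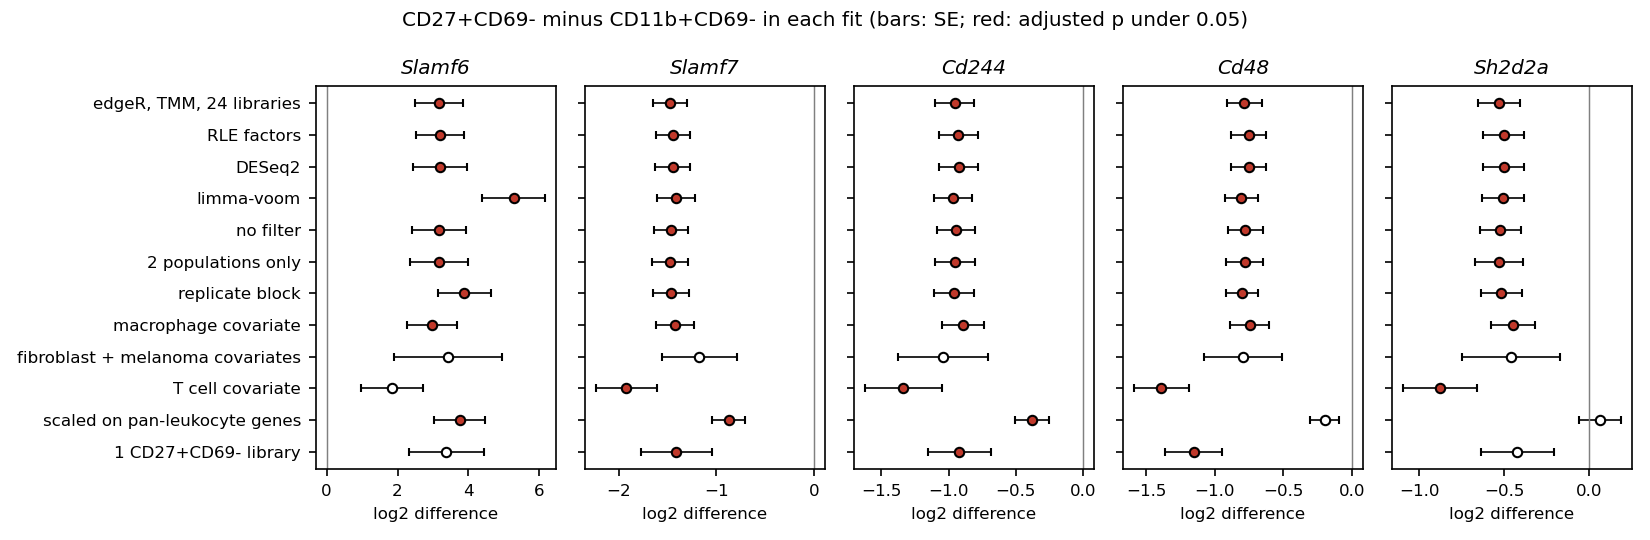
CD27+CD69- minus CD11b+CD69- log2 differences of the 5 genes that passed (horizontal axes; points are estimates, bars standard errors, red an adjusted p under 0.05), with 1 row for each fit. Slamf6 stays above 0 and Slamf7, Cd244 and Cd48 stay below 0 in each fit shown, Sh2d2a crosses 0 when libraries are scaled on pan-leukocyte genes, and no gene passes with fibroblast and melanoma covariates.

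The CD27+CD69- libraries, in which Slamf7, Cd244, Cd48 and Sh2d2a were lower than in CD11b+CD69- libraries, also held more RNA of the fibroblast list, which summed to a median of 5385 CPM in CD27+CD69- and 0.246 CPM in CD11b+CD69- libraries. Among CD27+CD69- libraries, replicate 2 held the most of the list, 11001 CPM. It had the highest Slamf7 (139.7 CPM, against 139.5 in replicate 1) and Cd48 (669 CPM) levels of its population. Cd244 was at 379 and Sh2d2a at 799 CPM there. Its pan-leukocyte sum, 19629 CPM, was also the highest of its population. Replicate 5 held the least, 258 CPM. It had 125 CPM of Slamf7, 422 of Cd48, 396 of Cd244 and 896 of Sh2d2a, and a pan-leukocyte sum of 16539 CPM. All 4 genes were lowest in replicate 6 (Slamf7 96.5, Cd48 391, Cd244 226 and Sh2d2a 633 CPM). That library held 7404 CPM of the fibroblast list and 5729 CPM of the melanoma list. Its pan-leukocyte sum, 11030.3 CPM, was the lowest of its population. With replicate 5 as the only one of its population and its spread assumed to be like that of the other groups, Slamf7 (-1.41, adjusted p = 0.0430), Cd244 and Cd48 passed as lower, against 1.92% of all genes called. In that fit Slamf6 (3.38, adjusted p = 0.105) and Sh2d2a (-0.42, adjusted p = 0.437) did not. With the fibroblast and melanoma lists as covariates 0 of the 5 passed, and 0.399% of all genes did, with Slamf7 at -1.17 (adjusted p = 0.319) and Slamf6 at 3.42 (adjusted p = 0.694). Macrophage genes (10 genes) summed to 22.7 to 302 CPM in CD27+CD69- and 8.22 to 56.9 CPM in CD11b+CD69- libraries, with Mrc1 at 0 counts in both. The part of these cells in the differences was not tested otherwise.

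**Figure D5:**
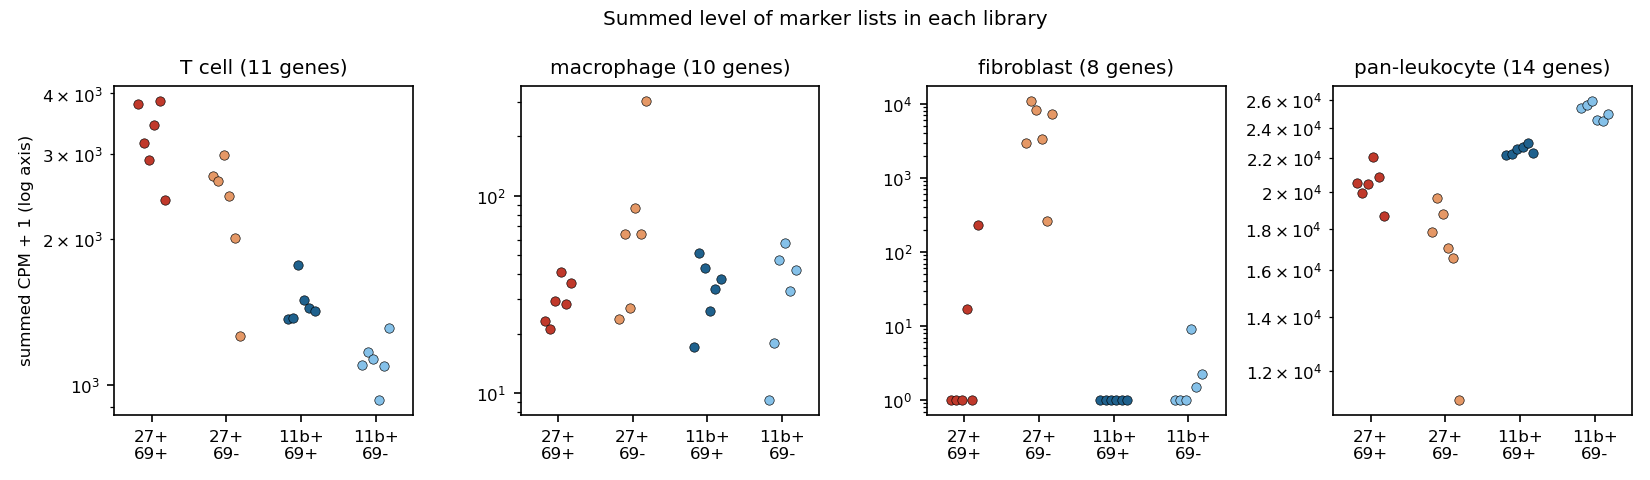
Summed level of 4 marker lists in each library (vertical log axes, summed CPM + 1), with 1 point per library. T cell genes are highest in CD27+CD69+ libraries (2405 to 3859 CPM), fibroblast genes in CD27+CD69- libraries (258 to 11001 CPM), and pan-leukocyte genes are lowest in CD27+CD69- libraries (11030.3 to 19629 CPM).

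Of 4 other SLAM family genes, Slamf1, Slamf8 and Slamf9 had counts in 1 or 2 libraries only (21, 13 and 44 counts in all) and were not tested. Cd2, a related receptor that binds CD48 in mice, averaged 1069 ± 148 CPM in CD27+CD69+, 811 ± 166 in CD27+CD69-, 997 ± 94.9 in CD11b+CD69+ and 884 ± 94.1 CPM in CD11b+CD69- libraries, and did not pass in any comparison. Of 21 genes for proteins that act with SAP and EAT-2, 20 were tested, and Plcg1 was too low.

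Among CD69- libraries 5 of these 20 were lower in CD27+ than in CD11b+ cells and 0 were higher, against 4.92% and 7.46% of all genes. The list's median was -0.41, that of all genes 0.05 and that of the pan-leukocyte list -0.62. Txk, a TEC family kinase, averaged 626 ± 115 CPM in CD27+CD69- and 1031 ± 110.0 CPM in CD11b+CD69- libraries (log2 difference -0.72, SE 0.11, adjusted p = 4.17e-05). Plcg2, the phospholipase C gamma of NK and B cells, averaged 73.7 ± 33.7 and 190.0 ± 55.8 CPM in the same populations (-1.36, SE 0.26, adjusted p = 0.000577). Dok2, an adaptor that restrains RAS signals, differed by -0.86 (SE 0.17, adjusted p = 0.000759). Prkcq, protein kinase C theta, differed by -0.58 (SE 0.16, adjusted p = 0.0172). Inpp5d, the lipid phosphatase SHIP1, differed by -0.77 (SE 0.22, adjusted p = 0.0187), and by -0.68 (adjusted p = 0.0542) without CD27+CD69- replicate 6. With the fibroblast and melanoma lists as covariates 0 of the 5 passed (adjusted p = 0.907 to 0.999). Scaled on pan-leukocyte genes, Plcg2 alone of the 5 passed (-0.80, adjusted p = 0.0113), but Plcg2 did not pass with the T cell list as a covariate (-1.33, adjusted p = 0.178). With CD27+CD69- replicate 5 as the only library of its population, Plcg2 (adjusted p = 0.355), Dok2 (adjusted p = 0.0845) and Inpp5d (adjusted p = 0.466) did not pass. With the macrophage list as a covariate Prkcq (adjusted p = 0.116) and Inpp5d (adjusted p = 0.0997) did not, nor did Prkcq when only these 2 populations were fitted (adjusted p = 0.0766).

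Within CD27+ cells 2 of the 20 were higher in CD69+ libraries and 0 were lower, against 0.55% and 1.3% of all genes. Lcp2, the scaffold SLP-76, averaged 455 ± 41.1 CPM in CD27+CD69+ and 318 ± 77.8 CPM in CD27+CD69- libraries (0.52, SE 0.13, adjusted p = 0.0315). It did not pass without CD27+CD69+ replicate 1 or CD27+CD69- replicate 3, 4, 5 or 6 (0.41 to 0.52, adjusted p = 0.0537 to 0.0645). Ptpn6, the phosphatase SHP-1, averaged 498 ± 66.8 and 334 ± 79.6 CPM in the same populations (0.58, SE 0.15, adjusted p = 0.0367). It did not pass without replicate 3 or 4 of either population or CD27+CD69- replicate 6 (0.49 to 0.56, adjusted p = 0.0591 to 0.0976). Scaled on pan-leukocyte genes, neither passed (0.25 for Lcp2 and 0.28 for Ptpn6, adjusted p = 0.216 and 0.319). Neither passed when only these 2 populations were fitted (adjusted p = 0.135 for Lcp2 and 0.0962 for Ptpn6), with the macrophage (0.186 and 0.0731), the T cell (0.593 and 0.319) or the fibroblast and melanoma lists (1 for both) as covariates, or with CD27+CD69- replicate 5 alone (0.356 and 0.894). None of the 20 passed within CD11b+ cells, among CD69+ libraries or in the difference between CD69 differences, by edgeR, and 3, 3 and 4 of them had an unadjusted p under 0.05 there, against 13.9%, 11.4% and 9.46% of all genes.

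For the 3 members with the smallest p in the test of any difference, the genes with the most similar pattern were sought among 7894 genes with a mean of at least 10 CPM. Likeness was the root mean square difference of centred log2(CPM + 1) values over the 24 libraries. Nearest to Slamf7 were Bhlhe40, a transcription factor, at 0.33, Ccnd2, a D-type cyclin, at 0.34, and Laptm5, a lysosomal protein of blood cells, at 0.35, where the median of all genes was 0.81. Laptm5 is also 1 of the 14 pan-leukocyte genes. Nearest to Cd244 were Nkg7, a granule membrane protein, at 0.20, Lat2, a linker adaptor, at 0.23, and Fcer1g, an ITAM adaptor, at 0.23, where the median was 0.71. Nearest to Slamf6 was Emb, a membrane glycoprotein, at 1.18, followed by Ikzf2, the transcription factor Helios, at 1.24 and Acoxl at 1.26, where the median was 2.27. Emb averaged 1305 ± 116 CPM in CD27+CD69+, 1095 ± 157 in CD27+CD69-, 331 ± 65.4 in CD11b+CD69+ and 164 ± 78.0 CPM in CD11b+CD69- libraries (SD, n = 6 each). The members' own SDs on this scale were 0.60 for Slamf7, 0.46 for Cd244 and 2.25 for Slamf6, against which these distances are to be read.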

How the data were processed

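RNA of 24 libraries was measured. Per the labels' protocols, 100 sorted cells per library were lysed, and cDNA was made and amplified with the SMART-Seq v4 kit and NexteraXT, which keep no strand and add no molecular identifiers. The deposited values are raw read counts for each Ensembl gene, not normalized by the authors. The submitters' processing notes name GRCm38, HTSeq and Picard; the sources used here name no aligner, annotation or strand setting. There were 53471 rows, and 3433 identifiers with no symbol held 0.174% of counts. Of 2 identifiers named Itgam, ENSMUSG00000030786 was used.

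Tests were edgeR 4.0.16 quasi-likelihood F-tests in R 4.3.3, in 1 robust fit of 4 group means to 24 libraries, with TMM factors (0.958 to 1.06) and filterByExpr (minimum count 10, 10536 genes kept). Benjamini-Hochberg adjustment ran over all genes, with a threshold of 0.05. CPM are TMM-scaled. DESeq2 1.42.0, limma 3.58.1 (voom), other scalings, filters, covariates and left-out libraries were alternatives, and the tests were tested on simulated counts. Positions and exon lengths are from GENCODE M21, promoters from RefSeq (GRCm38.p6). Replicate libraries differed beyond counting error (chi-square per degree of freedom 10.8 to 35.7 over 60 pairs). The titles give each replicate number once per population, and what it marks is not given.

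The members, lists and the naming rule were chosen with earlier results of these data known. The rule names the 10 members, partner genes past the threshold (at most 6 per comparison) and, for the 3 members with the smallest p, the 3 genes of most similar pattern. The pan-leukocyte scaling, the T cell covariate and the fit with 1 CD27+CD69- library were chosen after seeing the data.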

Additional observations from a re-analysis of the deposited data

Results flagged for a closer look

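In 4 of 40 groups of 6 libraries (10 genes in 4 populations) 1 library lay far from the others; chance alone gives about 1 in 20. Slamf6 in CD11b+CD69- cells was at 45.9 CPM in replicate 6, and at 0 to 6.39 CPM in the others. Cd84 in CD11b+CD69- cells was at 339 CPM in replicate 3, and at 215 to 245 CPM in the others. Ly9 in CD27+CD69- cells was at 418 CPM in replicate 1, and at 63.5 to 120 CPM in the others. Sh2d1b2 in CD11b+CD69- cells was at 5.48 CPM in replicate 1 (12 counts), and at 0 to 1.33 CPM in the others.

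The CD69 difference of Slamf7 differed between CD27+ and CD11b+ cells by 1.27 on the log2 scale, by a test of the difference itself in edgeR (SE 0.24, adjusted p = 0.0118). It did not pass with pan-leukocyte scaling (0.81, adjusted p = 0.0691), with the fibroblast and melanoma covariates (1.03, adjusted p = 0.981) or with CD27+CD69- replicate 5 as the only library of its population (1.20, adjusted p = 0.422).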

How the results depend on the processing

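Counts of members called depended on the setting; the percentages give the share of all genes called under the same setting. In CD11b+ cells the CD69 count of 0 became 1 with limma-voom (3.4%), with only the 2 populations (4.11%), with pan-leukocyte scaling (3.29%) and with the T cell covariate (3.12%), and ran from 0 to 1 over left-out libraries (1 without CD11b+CD69- replicate 3 or 6). In CD27+ cells the CD69 count of 1 became 2 with DESeq2 (2.67%) and with the replicate block (2.41%), 0 with the macrophage (1.01%), the fibroblast and melanoma (0%) or the T cell covariates (0.731%), with pan-leukocyte scaling (3.75%) and with 1 CD27+CD69- library (0.0152%), and ran from 1 to 2 over left-out libraries (2 without replicate 1 of either population, CD27+CD69- replicate 5 or CD27+CD69+ replicate 6). The count of 5 between CD27+CD69- and CD11b+CD69- became 0 with the fibroblast and melanoma covariates (0.399%) and 3 with 1 CD27+CD69- library (1.92%). The count of 1 between CD27+CD69+ and CD11b+CD69+ became 0 without the filter (0.667%) and with the T cell covariate (1.67%), and ran from 0 to 1 over left-out libraries. The count of 1 for the difference of CD69 differences became 2 with DESeq2 (1.6%), limma-voom (0.816%), the replicate block (0.617%) and the T cell covariate (0.826%), 0 with the fibroblast and melanoma covariates (0.00949%), pan-leukocyte scaling (2.05%) and 1 CD27+CD69- library (0.136%), and ran from 1 to 2 over left-out libraries. The count of 6 for any difference became 1 (Slamf6) with the fibroblast and melanoma covariates (5.57%). The causes were not tested. Pan-leukocyte scaling reversed 2 values between CD27+CD69- and CD11b+CD69-, Sh2d1a to 0.53 and Sh2d2a to 0.065; it moved the median of all genes to 0.15 and -0.33 (CD69 in CD11b+ and CD27+), 0.67 and 0.16 (CD27+ against CD11b+ in CD69- and CD69+) and -0.51 (difference of CD69 differences), and leaving out the filter moved it to 0.13 and -0.20 in the third and last of these. In DESeq2, which tested 10535 genes, the counts of all genes called rose to 483, 281 and 169, against 289, 195 and 61 in edgeR, for CD69 in CD11b+ cells, CD69 in CD27+ cells and their difference. Same-numbered libraries showed little shared deviation over all genes (correlations -0.029 to 0.207, 1 of 24 pairs over 0.1). Pairs with unlike numbers ran from -0.148 to 0.129. What the number marks is not given, and this check cannot exclude that same-numbered libraries share a source. With the number as a block, Sh2d1b1 passed for CD69 in CD27+ cells (0.83, adjusted p = 0.0393). Cd48 then passed for the difference of CD69 differences (0.71, adjusted p = 0.0483). Depth limits Sh2d1b2 (293 counts) and Slamf6 in CD11b+CD69- libraries (141 counts).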
